A study of Mus musculus with 8 samples.

Results

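Transcripts of the immunoproteasome and of class I antigen presentation were followed in mouse mesenchymal cells over their first day in micromass culture, a dense spot of cells used to study cartilage formation. The genes were Psmb8, Psmb9 and Psmb10 (the inducible catalytic subunits of the proteasome), Psme1 and Psme2 (the subunits of its PA28 activator), Tap1 and Tap2 (the peptide transporter), Tapbp (tapasin, the bridge between transporter and class I molecule) and B2m (the class I light chain). Every probe set that the array annotation assigns to these 9 genes was taken, which gave 15 of the 45037 probe sets measured, for 9 of the 22657 gene symbols listed.

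The 8 arrays carried RNA from CH310T1/2 cells, in 4 groups of 2. All cultures had been electroporated, either with a control plasmid or with one that carries Erg-010, a variant of Erg, a transcription factor of the ETS family. The Erg plasmid was driven by the CMV promoter, active in most cell types, in the cultures of day 0 and by the Col2 promoter, named for a cartilage collagen gene, in those of day 1. For the Erg cultures, promoter and day therefore cannot be told apart. By its title, the series asks how Erg bears on chondrocyte fate when the knee joint forms.

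Proteasomes cut cytosolic proteins into peptides, and in cells exposed to interferon the constitutive catalytic subunits Psmb5, Psmb6 and Psmb7 are replaced in new particles by Psmb8, Psmb9 and Psmb10, respectively. The peptides pass through the Tap1 and Tap2 transporter into the endoplasmic reticulum, where tapasin helps to load them onto class I heavy chains paired with B2m. Fibroblasts and other mesenchymal cells carry class I molecules at rest and raise these genes together when interferon acts on them.

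The upstream sequences of 4 of these genes are shown, since Psmb9, Tap1 and Psmb8 lie side by side and were lower on day 1, while B2m moved little. They are the bases just before the RefSeq starts in the build GRCm38.p6. Psmb9 and Tap1 are read in opposite directions from starts 226 bases apart on chromosome 17, and the 225 bases between these starts (chr17:34187331-34187555, plus strand, read towards Tap1) serve as upstream sequence of both. The Psmb8 sequence is chr17:34197945-34198194 and the B2m sequence chr2:122147437-122147686, both on the plus strand.

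Psmb9-Tap1 interval: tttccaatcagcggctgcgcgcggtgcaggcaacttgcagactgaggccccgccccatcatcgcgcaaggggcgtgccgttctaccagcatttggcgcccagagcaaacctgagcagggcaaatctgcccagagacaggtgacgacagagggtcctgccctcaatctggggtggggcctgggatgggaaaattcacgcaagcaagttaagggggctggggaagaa
Psmb8: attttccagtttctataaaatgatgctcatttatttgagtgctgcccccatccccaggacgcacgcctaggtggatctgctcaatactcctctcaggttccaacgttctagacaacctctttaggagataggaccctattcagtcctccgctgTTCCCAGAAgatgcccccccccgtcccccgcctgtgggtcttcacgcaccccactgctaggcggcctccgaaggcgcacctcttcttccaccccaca
B2m: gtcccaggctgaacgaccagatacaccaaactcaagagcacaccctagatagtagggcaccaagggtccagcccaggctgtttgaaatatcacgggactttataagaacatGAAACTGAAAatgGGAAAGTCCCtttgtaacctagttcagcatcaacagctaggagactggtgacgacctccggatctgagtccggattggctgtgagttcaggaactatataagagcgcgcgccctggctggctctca

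Capitals mark matches, on either strand, to 3 motifs. These were GAAA, 2 bases of any kind and GAAA again, of the type that interferon-stimulated response elements have, TTCNNNGAA, of the type that gamma-activated sites have, and GGG, 2 bases of any kind and TTTCC, of the type bound by NF-kB. Psmb8 held TTCCCAGAA from 97 to 89 bases upstream, a form that 7.02% of 32851 upstream windows of 250 bases hold. B2m held GAAACTGAAA from 139 to 130 bases upstream, against 2.98% of windows with the first motif, and GGAAAGTCCC, the NF-kB form on the other strand, from 126 to 117 bases upstream, against 1.41% of windows. No match lay in the Psmb9-Tap1 interval or in the windows of Psmb10, Psme1, Psme2 and Tapbp. A match is a run of letters, not a bound site, and the Tap2 window was not used here. Only these 3 forms were searched for, within 250 bases, so a window without a match may still hold other forms of such sites.

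The arrays were alike in brightness, with medians between 6.59 and 6.70 on the log2 scale. The number of arrays limits the precision, and no label says whether the pair of arrays in a group came from separate cultures, so p-values describe a spread that may be technical. The Erg gene, which checks the labels, showed no excess where the labels say Erg. Its probe set 1440244_at read 7.30 and 7.61 in the control and 6.79 and 5.59 in the Erg arrays of day 0, and 8.43 and 8.50 in the control and 8.53 and 7.68 in the Erg arrays of day 1. On day 0 both Erg arrays thus lay below both control arrays, by a mean difference of -1.26 (limma adjusted p = 0.802). The other probe set, 1425370_a_at, read 6.82 and 7.04 in the control and 6.96 and 6.62 in the Erg arrays of day 0. On day 1 it read 7.21 and 7.01 in the control and 7.22 and 6.81 in the Erg arrays, with overlap on both days. Where the probes of either lie relative to the plasmid's sequence is not given in the sources used here. Erg below therefore means the arrays labelled Erg. The Erg arrays of day 0 stood apart from each other, with an SD of 0.611 for the difference between replicates over all probe sets, against 0.233 to 0.335 in the other groups.

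In the control cultures the inducible proteasome subunits and the PA28 subunits were lower on day 1 than on day 0. Psmb10 fell 2.98-fold, Psmb9 2.95-fold, Psmb8 2.41-fold, Psme2 1.80-fold and Psme1 1.69-fold, while Tap2 and B2m stayed within their error. Of the 15 probe sets, 6 passed the threshold of an adjusted p of 0.05, all of them lower, against 7.97% of all probe sets called lower and 19.8% called in either direction. They belonged to Psmb8, Psmb9, Psmb10, Psme1, Psme2 and Tap1. On both day 1 arrays 14 of the 15 read below both day 0 arrays, against 44% of all probe sets. The median difference was -0.65 on the log2 scale, against -0.11 over all probe sets. The RNA came from whole cultures, so fewer cells of a kind and less RNA per cell cannot be told apart.

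**Figure D1:**
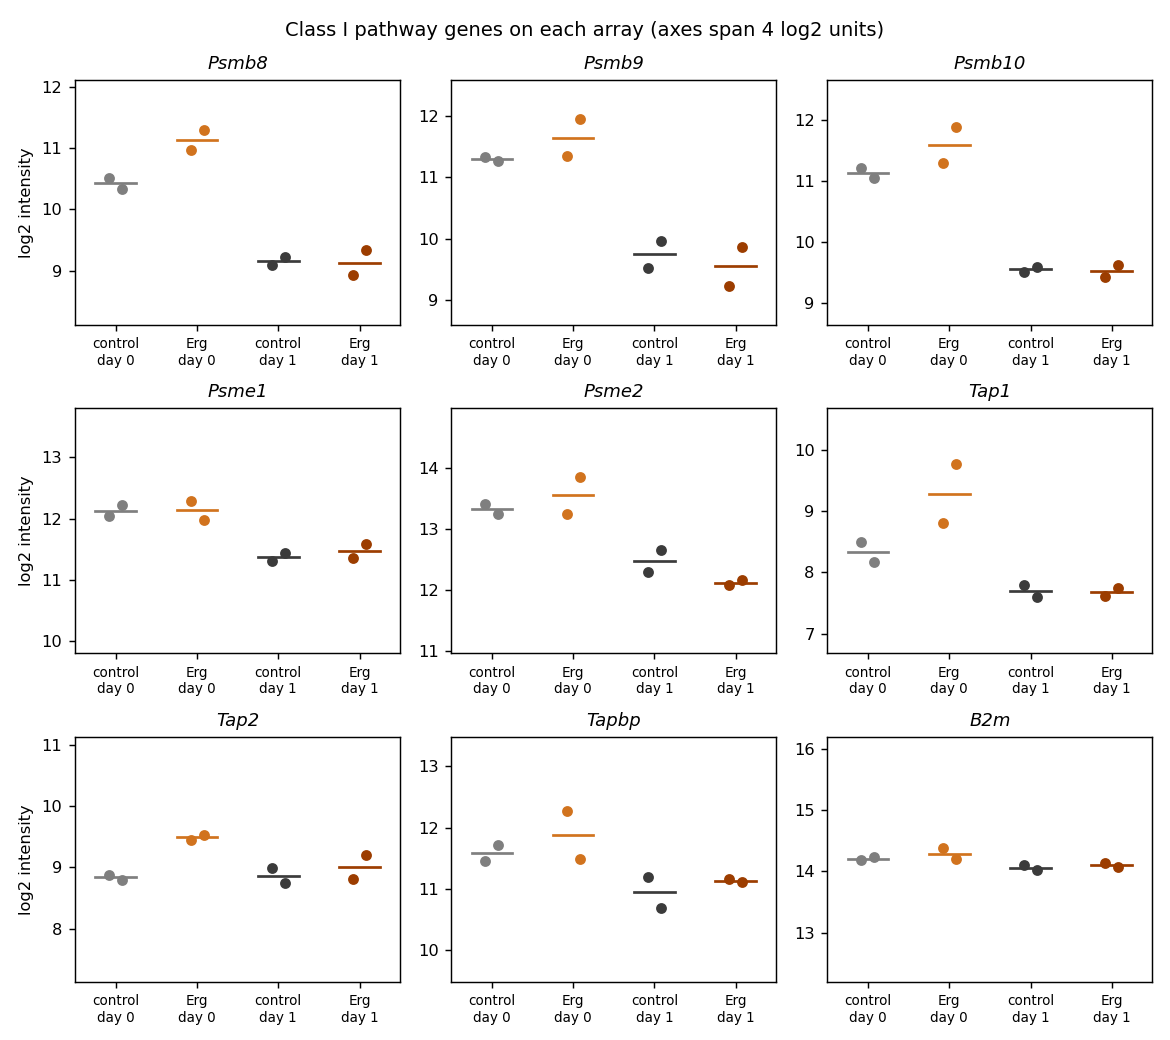
Each panel plots the log2 intensity of the brightest probe set of a gene on the 8 arrays, with a point for each array and a bar for the mean of a group; the axes span equal ranges. The day 1 arrays lie below the day 0 arrays for Psmb8, Psmb9, Psmb10, Psme1, Psme2, Tap1 and Tapbp. They also do so, by a small gap, for B2m, which spans 14.01 to 14.38. Tap2 is highest in the Erg arrays of day 0.

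Values below are log2 intensities, replicate 1 before replicate 2, and cannot be set against another probe set's. Psmb8, which takes the place of Psmb5, read 10.52 and 10.33 in the control arrays of day 0 and 9.09 and 9.22 in those of day 1 (probe set 1422962_a_at). The Erg arrays gave 10.97 and 11.30 on day 0, then 8.93 and 9.33 on day 1. The order was thus Erg day 0 (11.14 ± 0.24, SD, n = 2), control day 0 (10.42 ± 0.13) and then the day 1 groups, which overlapped at 9.15 ± 0.09 for control and 9.13 ± 0.29 for Erg. The fall in the control cultures was 1.27 on the log2 scale (SE 0.19, limma adjusted p = 0.00881). The dimmer second probe set of Psmb8, 1444619_x_at, shares part of its probes' sequence with other transcripts by the array's naming. It read 6.07 and 5.77 in the control arrays of day 0 and 4.89 and 5.01 in those of day 1, and 6.09 and 7.40 in the Erg arrays of day 0 and 5.33 and 5.14 in those of day 1. It ran the same way, with a difference of -0.97 in the control cultures that missed the threshold (limma adjusted p = 0.118).

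Psmb9, which takes the place of Psmb6, read 11.34 and 11.27 in the control arrays of day 0 and 9.52 and 9.97 in those of day 1. The Erg arrays gave 11.34 and 11.95 on day 0, then 9.23 and 9.87 on day 1. The days did not overlap. On day 0 both Erg arrays read above both control arrays, replicate 1 by less than the second decimal shows, and on day 1 the control and Erg arrays overlapped. The control difference between days was -1.56 (SE 0.29, limma adjusted p = 0.0157). Psmb10, which takes the place of Psmb7, read 11.21 and 11.05 in the control arrays of day 0 and 9.51 and 9.60 in those of day 1, and 11.29 and 11.87 in the Erg arrays of day 0 and 9.43 and 9.63 in those of day 1. All 4 day 1 values lay below all 4 day 0 values, by a control difference of -1.57 (SE 0.21, limma adjusted p = 0.00637).

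The PA28 subunits form a ring that caps the proteasome and opens it. Psme1 read 12.04 and 12.21 in the control arrays of day 0 and 11.31 and 11.43 in those of day 1, a difference of -0.75 (SE 0.16, limma adjusted p = 0.0237). The Erg arrays gave 12.29 and 11.98 on day 0, then 11.35 and 11.59 on day 1, so the days did not overlap in either kind of culture. Psme2 read 13.40 and 13.25 in the control arrays of day 0 and 12.29 and 12.66 in those of day 1, a difference of -0.85 (SE 0.23, limma adjusted p = 0.0425). Its Erg arrays gave 13.24 and 13.85 on day 0, then 12.09 and 12.16 on day 1, the latter both below the control arrays of day 1. The array annotation aligns this probe set to chromosome 11 as well as to chromosome 14, where RefSeq places Psme2, so its signal may hold a second copy.

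The transporter subunits moved less evenly. Tap1 had 4 probe sets. The brightest, 1416016_at, read 8.49 and 8.17 in the control arrays of day 0 and 7.79 and 7.60 in those of day 1, a difference of -0.64 that missed the threshold (SE 0.30, limma adjusted p = 0.170). Its Erg arrays gave 8.80 and 9.76 on day 0, then 7.60 and 7.75 on day 1, so both Erg arrays of day 0 were above all others. The second, 1448177_at, read 6.72 and 6.70 in the control arrays of day 0 and 6.14 and 6.27 in those of day 1, and fell by 0.51 (SE 0.12, limma adjusted p = 0.0341). Its Erg arrays gave 6.63 and 6.79 on day 0, then 6.14 and 6.03 on day 1, and those of day 0 did not stand above the control. The other pair of Tap1 probe sets, 1449803_x_at and 1420274_at, lay in the lowest quartile of all 8 arrays and differed by -0.60 and -0.65 between control days (limma adjusted p = 0.112 and 0.133).

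Tap2, the partner of Tap1 in the transporter, showed no fall in the control cultures. It read 8.87 and 8.80 in the control arrays of day 0 and 8.99 and 8.74 in those of day 1, which overlapped, with a difference of 0.03 whose 95% interval ran from -0.37 to 0.42 (limma adjusted p = 0.912). The Erg arrays gave 9.45 and 9.53 on day 0, above all other arrays, and 8.82 and 9.19 on day 1.

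Tapasin and the light chain closed the series of roles. Tapbp read 11.46 and 11.72 in the control arrays of day 0 and 11.20 and 10.69 in those of day 1 by probe set 1421812_at, a difference of -0.65 (limma adjusted p = 0.148). Its Erg arrays gave 12.27 and 11.49 on day 0, then 11.15 and 11.11 on day 1. Probe set 1450378_at of Tapbp read 7.88 and 7.93, then 7.57 and 7.07 in the control arrays and 8.32 and 7.75, then 7.34 and 7.40 in the Erg arrays, a control difference of -0.58 (limma adjusted p = 0.119). The day 1 arrays lay below those of day 0 in both kinds of culture and by both probe sets, without passing the test.

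B2m, the invariant chain of every class I molecule, varied least in signal. Its probe sets were among the brightest measured, at percentiles 99.56 (1452428_a_at) and 99.66 (1449289_a_at) of all probe sets by mean. Whether signals so bright understate a change of the transcript was not tested. Probe set 1452428_a_at, which the annotation places on chromosome 2, read 14.05 and 14.08 in the control arrays of day 0, 13.97 and 13.81 in those of day 1, 14.26 and 13.95 in the Erg arrays of day 0 and 13.97 and 13.96 in those of day 1. Its control difference was -0.18, with a 95% interval from -0.52 to 0.17 (limma adjusted p = 0.396). The other, 1449289_a_at, read 14.18 and 14.23 in the control arrays of day 0, 14.11 and 14.01 in those of day 1, 14.38 and 14.20 in the Erg arrays of day 0 and 14.13 and 14.07 in those of day 1. Its difference of -0.14 had an interval from -0.44 to 0.15 (limma adjusted p = 0.418), and the annotation aligns it to chromosome 15, so its target is uncertain. By this probe set all day 1 arrays read below all day 0 arrays, without passing the test. A fall in signal of the size seen in Psmb9 or Psmb10 lies outside both intervals of B2m and that of Tap2.

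**Figure D2:**
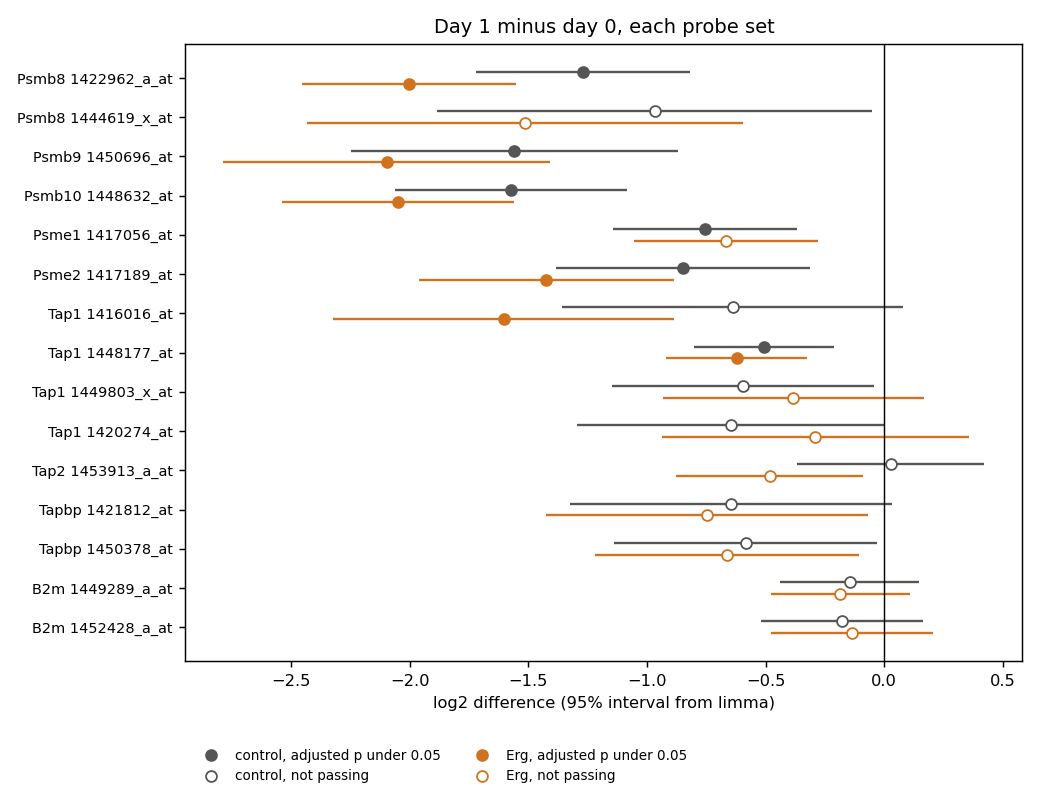
Points are log2 differences of day 1 minus day 0 for each of the 15 probe sets, in control cultures (grey) and Erg cultures (orange), with 95% intervals from limma; filled points passed an adjusted p of 0.05. In each kind of culture 6 probe sets passed, all to the left of 0.

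The control count rests on every array of its groups. Without replicate 1 or 2 of control day 0 none of the 15 passed, against 1.80% and 0.813% of all probe sets. Without replicate 1 or 2 of control day 1 the counts were 2 and 3, against 9.94% and 6.63% of all. The Erg arrays enter through the shared spread: leaving out either one of day 1 gave 4, against 10.6% of all, and either one of day 0 gave 11, against 36.6% of all. In each of these settings the share called on the whole array moved in the same direction from 19.8% as the count did from 6. The authors' deposited table gives a q-value under 0.05 for 10 of the 15 in this comparison, with a smallest of 0.00224. That measure is more lenient than the limma adjusted p: the second probe set of Psmb8 has a q of 0.0413 beside 0.118. The share of all probe sets under that q was not counted, so the 10 cannot be set against it.

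The Erg cultures ran in the same direction. Their arrays are not those compared above, but both comparisons take their spread from 1 fit on all 8 arrays, so their calls are not independent. Psmb9 fell 4.28-fold, Psmb10 4.14-fold, Psmb8 4.01-fold, Tap1 3.04-fold by its brightest probe set and Psme2 2.68-fold between day 0 and day 1. Again 6 of the 15 probe sets passed, all lower, against 1.67% of all probe sets called lower and 6.99% called in either direction. They belonged to 5 genes, since Tap1 passed by 2 probe sets and Psme1 did not pass (-0.67, limma adjusted p = 0.0600). All 15 differences were below 0, with a median of -0.67 against -0.06 over all probe sets, and 13 did not overlap between the days, against 30.7% of all.

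The falls in the Erg cultures were 2.10 for Psmb9 (SE 0.29, limma adjusted p = 0.0136), 2.05 for Psmb10 (SE 0.21, adjusted p = 0.00587) and 2.00 for Psmb8 (SE 0.19, adjusted p = 0.00494) on the log2 scale. Psme2 differed by -1.42 (SE 0.23, limma adjusted p = 0.0193) and Tap1 by -1.60 and -0.62 (limma adjusted p = 0.0307 and 0.0361). The second probe set of Psmb8 differed by -1.51 (limma adjusted p = 0.0675), Tap2 by -0.48 (0.135 by the same fit), and Tapbp by -0.75 and -0.66. The differences of B2m were -0.19 and -0.14, and those of the dim Tap1 probe sets -0.38 and -0.29.

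The Erg count too rests on single arrays. Without replicate 1 or 2 of Erg day 1 it was 2 and 1, against 0.864% and 0.233% of all probe sets. Without either control array of day 0 it was 3, against 1.78% of all, and without replicate 2 of Erg day 0 it was 9, against 9.65%. From the 4 Erg arrays alone it was 0, with 23 called of all. With the replicate number as a block, Tap1 no longer passed in either kind of culture (limma adjusted p = 0.0580 in control, 0.0509 and 0.0626 in Erg). The authors' deposited table gives 8 of the 15 a q-value under 0.05, with a smallest of 0.00252, and here too the share of all probe sets was not counted.

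On day 0 no probe set on the arrays passed between Erg and control, so none of the 15 did, against 0% of all. The brightest probe sets of all 9 genes were nevertheless higher in the Erg mean, and 12 of the 15 differences were above 0, with a median of 0.22 against -0.01 over all probe sets. An unadjusted p under 0.05 was reached by 3 of the 15, all higher, against 2.37% of all probe sets on the higher side and 5.43% on either. For 6 of the 15 both Erg arrays read above both control arrays, against 13.6% of all. These differences share their day 0 arrays with the comparisons of days.

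Tap1 was higher in Erg by 0.95 (95% interval 0.23 to 1.67, limma adjusted p = 0.802) by its brightest probe set, while 1448177_at differed by -0.0021 and the dim pair by -0.14 and -0.40. Psmb8 was higher by 0.71 (95% interval 0.26 to 1.16, limma adjusted p = 0.802), and by 0.83 by its second probe set. Tap2 was higher by 0.65 (95% interval 0.26 to 1.05, limma adjusted p = 0.802). The other differences were 0.45 for Psmb10, 0.35 for Psmb9, 0.22 for Psme2 and 0.01 for Psme1. Tapbp differed by 0.29 and 0.13, and B2m by 0.09 and 0.04.

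**Figure D3:**
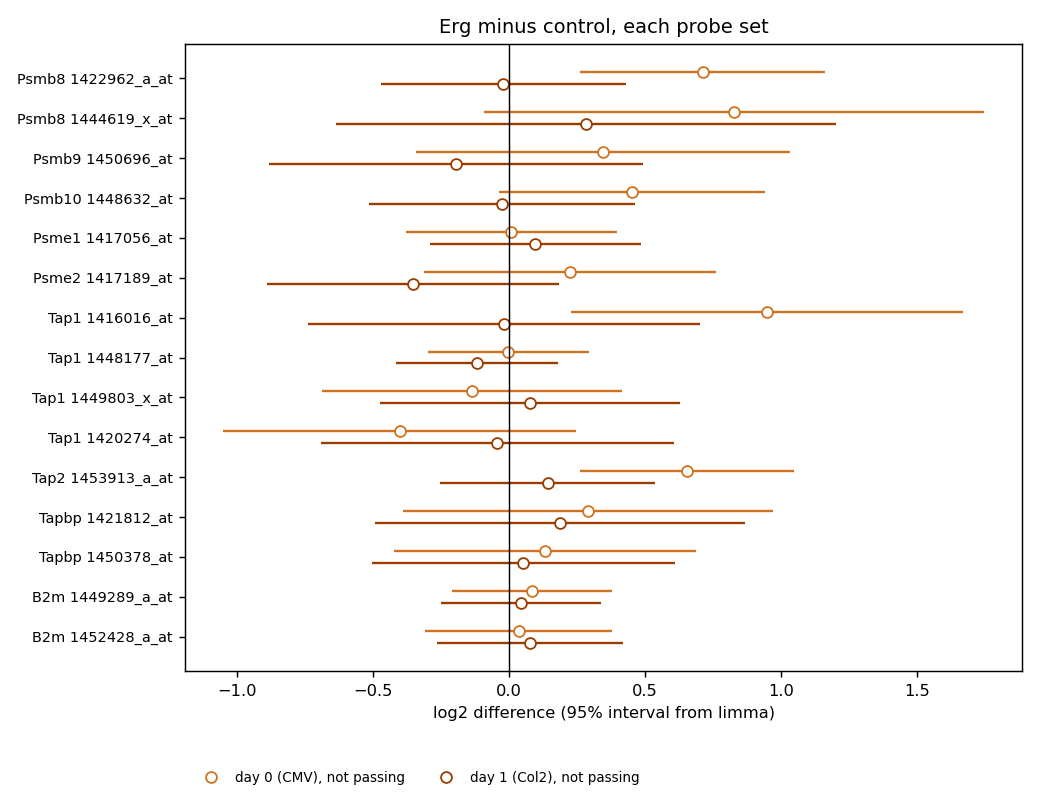
Points are log2 differences of Erg minus control for the 15 probe sets on day 0 (CMV promoter) and day 1 (Col2 promoter), with 95% intervals from limma; open points did not pass an adjusted p of 0.05. The day 0 intervals of Psmb8 (1422962_a_at), Tap1 (1416016_at) and Tap2 lie above 0, and all day 1 intervals span 0.

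The Erg arrays of day 0 disagreed on most of these genes. Replicate 2 read above replicate 1 by 0.34 and 1.31 for the probe sets of Psmb8, 0.61 for Psmb9, 0.58 for Psmb10, 0.61 for Psme2 and 0.96 for Tap1 (1416016_at). It read below replicate 1 by -0.31 for Psme1, -0.79 and -0.57 for Tapbp, and -0.18 and -0.31 for B2m. With replicate 1 left out, so that a lone Erg array is taken to vary like the other groups, 4 of the 15 passed, all higher: both of Psmb8, Psmb10 and Tap1 (1416016_at). In that setting 7.54% of all probe sets passed, and 4.13% of all did so as higher. With replicate 2 left out none passed, and the part that replicate plays was not tested further.

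On day 1 Erg and control were close. The 15 differences ran from -0.35 to 0.28, with 8 above and 7 below 0, none passed, and none reached an unadjusted p under 0.05, against 1.37% of all probe sets. Psme2 lay at the lower end, and its pair of Erg arrays was below both control arrays. Psmb8 differed by -0.02 and, at its second probe set, by 0.28. Subtracting the Erg difference of day 0 from that of day 1 gave -0.73 for Psmb8 (95% interval -1.37 to -0.10, limma adjusted p = 0.974), the only one of the 15 with an unadjusted p under 0.05, against 2.44% of all probe sets. Tap1 (1416016_at) gave -0.96 and Tap2 -0.51 in that contrast (limma adjusted p = 0.974 for each). No change of the Erg difference between the days was thus called.

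The catalytic subunits have constitutive counterparts, which were compared with them as pairs of differences without a test between pair members. In the control cultures Psmb5 fell by 0.55 (limma adjusted p = 0.0315) beside the fall of 1.27 in Psmb8. Psmb6 differed by -0.57 (limma adjusted p = 0.0621) beside the fall of 1.56 in Psmb9. Psmb7 fell by 2.12 (SE 0.29, limma adjusted p = 0.00686), by more than the 1.57 of Psmb10, so inducible subunits were not the further to fall in every pair. In the Erg cultures none of the constitutive partners passed, with differences of -0.46 for Psmb5, -0.71 for Psmb6 and -1.05 for Psmb7 (limma adjusted p = 0.0904, 0.0595 and 0.0800).

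**Figure D4:**
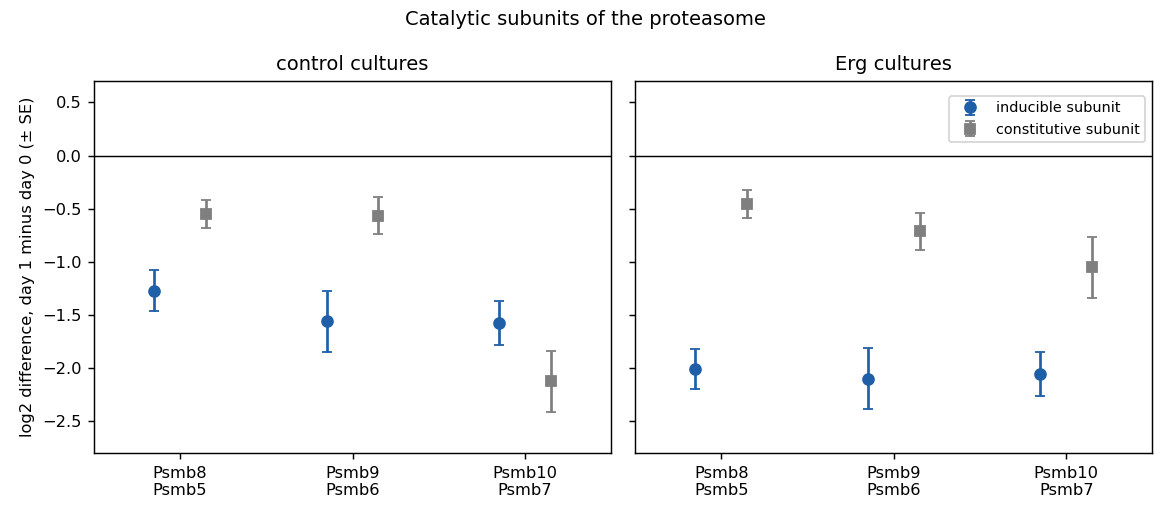
Points are log2 differences of day 1 minus day 0, with the SE from limma, for the inducible subunits (blue circles) and their constitutive counterparts (grey squares) in control and Erg cultures. The inducible subunit lies lower in every pair but Psmb10 with Psmb7 in the control cultures, where Psmb7 lies at -2.12.

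Among 19 other subunits, activators and assembly factors of the proteasome, 5 fell in the control cultures and none rose, against 7.97% of all probe sets called lower and 19.8% called in either direction. The median was -0.41, against -0.11 over all probe sets. Besides Psmb5 and Psmb7 these were Psma2 (-0.51), an outer ring subunit, and Psmb2 (-0.55) and Psmb3 (-0.64), inner ring subunits without inducible counterparts. The alternative activators Psme3 and Psme4 differed by -1.22 and 0.74 without passing (limma adjusted p = 0.0728 and 0.0572). In the Erg cultures 1 of the 19, Psmb2 (-0.52), fell, against 1.67% of all probe sets called lower.

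Of 20 class I heavy chains and loading partners, 13 had a probe set of their own. In the control cultures 5 of these 13 fell and none rose, against 7.97% of all probe sets called lower and 19.8% in either direction, with a median of -0.65 against -0.11 over all. H2-K1, a classical heavy chain, read 9.88 and 9.81 in the control arrays of day 0 and 7.95 and 7.75 in those of day 1. It read 10.71 and 10.40 in the Erg arrays of day 0 and 7.95 and 8.15 in those of day 1, so the days lay far apart. Its control difference was -1.99 (SE 0.16, limma adjusted p = 0.00234), a 3.98-fold fall, and its Erg difference -2.50. H2-D1 (-1.05) and H2-L (-0.73), further classical heavy chains, H2-M3 (-0.67), which presents formylated peptides, and Tapbpl (-0.67), a relative of tapasin, fell as well. Heavy chain genes are near copies of each other, so their probe sets may share signal. Nlrc5, the class I transactivator, differed by -0.51 without passing (limma adjusted p = 0.532), and H2-K1 alone of the list fell in the Erg cultures, where 1.67% of all probe sets were called lower.

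Of 19 interferon signalling genes, 9 fell and 2 rose in the control cultures, against 7.97% of all probe sets called lower and 19.8% in either direction. The median was -0.50, against -0.11 over all. Irf7 (-2.65), Irf9 (-1.76), Socs3 (-1.47) and Stat2 (-1.40) fell furthest. Irf7 amplifies type I interferon production, Irf9 and Stat2 belong to the factor that type I interferon activates, and Socs3 restrains cytokine signalling. Irf1 fell by 0.98 (SE 0.14, limma adjusted p = 0.00785). The receptor kinases Jak1 (0.84) and Tyk2 (0.61) rose. In the Erg cultures 6 fell and 1 rose, against 1.67% called lower and 6.99% in either direction of all, with Irf7 at -3.56, Irf9 at -2.38, Stat2 at -2.35 and Tyk2 at 0.58. The fall was not shared by the whole list, and Ifng, interferon gamma itself, lay in the lowest quartile of every array. Ifnb1, interferon beta, lay above that quartile on every array. It read 6.64 and 6.98 in the control arrays of day 0 and 5.95 and 5.77 in those of day 1. The Erg arrays gave 6.58 and 6.21 on day 0, then 5.98 and 5.98 on day 1.

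Between Erg and control on day 0, 5 of the 19 interferon genes reached an unadjusted limma p under 0.05, against 5.43% of all probe sets. Of the 13 class I genes 1 did, which is near that share, and none of the proteasome genes did. The class I gene was H2-K1 (0.71), and the interferon genes included Irf7 (0.87), each with a limma adjusted p of 0.802. Of the class II list, which belongs to professional presenting cells, 2 of 10 fell in the control cultures, Cd74 (-0.59), the invariant chain, and H2-Ob (-0.54), with a median of -0.36. With 19.8% of all probe sets called and 7.97% called lower, that count is near the share called on the whole array and is no result about class II genes. None of it passed in the Erg cultures.

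These list counts rest on single arrays as well, and the shares of all probe sets called in most of these settings are those given above for the 15 probe sets. Without either control array of day 0, 1 class I gene and none of the proteasome, interferon or class II genes passed between control days. Without replicate 1 or 2 of control day 1 the interferon count was 7 and 4, the class I count 3 and 1, the proteasome count 1 each and the class II count 0. Without either Erg array of day 0 the proteasome count between control days was 10, and without either Erg array of day 1 it was 2, as was the class I count. In the Erg cultures the interferon count was 1 without either Erg array of day 1, 4 without either control array of day 0 and 0 from the 4 Erg arrays alone. Without replicate 1 of Erg day 0, 14 proteasome and 6 class I genes passed there, where 23% of all probe sets did, and without replicate 2, 4 class I genes.

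Some leukocyte markers were lower on day 1. Of 13 leukocyte markers, 4 fell in the control cultures (Cd14, Cd68, Lyz2 and Cd8a), against 7.97% of all probe sets called lower and 19.8% in either direction, with a median of -0.34. Cd14 fell by 2.32 (limma adjusted p = 0.00974). The summed linear level of the list was 2909 to 3221 in the control arrays of day 0 and 1323 to 1377 in those of day 1, and 2181 to 3103 and 1303 to 1437 in the Erg arrays. Most of that drop was Cd14, at 1579 to 1818 in the control arrays of day 0 and 294 to 391 in those of day 1. The other 12 markers summed to 1331 to 1403 in the control arrays of day 0 and 986 to 1029 in those of day 1, a split made after seeing the data. The defining markers Ptprc and Itgam were in the lowest quartile of all 8 arrays. Of 9 mesenchymal markers, Pdgfrb (0.81) rose and none fell, against 11.8% of all probe sets called higher. That count is near the share called on the whole array and is no result about mesenchymal genes. Their summed level was 78468 to 81921 in the control arrays of day 0 and 93114 to 104735 in those of day 1. The part of these markers in the falls was not tested.

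The 9 genes differed in how closely they ran together. Over the 8 arrays the correlation of a gene's brightest probe set with the mean of the other 8 genes was 0.998 for Psmb8, 0.988 for Psmb10, 0.966 for Psmb9, 0.931 for Psme2, 0.904 for Tap1 and 0.884 for Psme1. It was 0.754 for B2m, 0.719 for Tapbp and 0.594 for Tap2. Over all 8 arrays Psmb8, Psmb10 and Psmb9 thus ran closest to the mean of the other genes, and Tap2 least close. The order rests in part on replicate 2 of Erg day 0. With that array left out, Psmb8 (0.9972) and Psmb10 (0.9815) still came first, but Psme1 (0.9723) and Tap1 (0.9594) stood above Psmb9 (0.9515). Psme2 was then at 0.8958, B2m at 0.8487, Tapbp at 0.8446 and Tap2, still the least close, at 0.376. These arrays fall into days, so the correlations describe mainly that split, and they carry no test.

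The mean course of the 9 genes, each taken relative to its own average, was matched to 3383 other genes whose SD over the arrays was at least 0.5. Parp12 (r = 0.996), Gbp3 (0.995), Gbp6 (0.993), Ifih1 (0.992) and D14Ertd668e (0.992) were most like it, and Akap6 (-0.993), Scn2a1 (-0.984) and Nebl (-0.983) most unlike. Of the 3383, 205 had an r above 0.9. The mean course read 0.34 and 0.29 above its average in the control arrays of day 0, 0.62 and 0.83 above it in the Erg arrays of day 0, and stood between -0.64 and -0.42 on day 1.

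**Figure D5:**
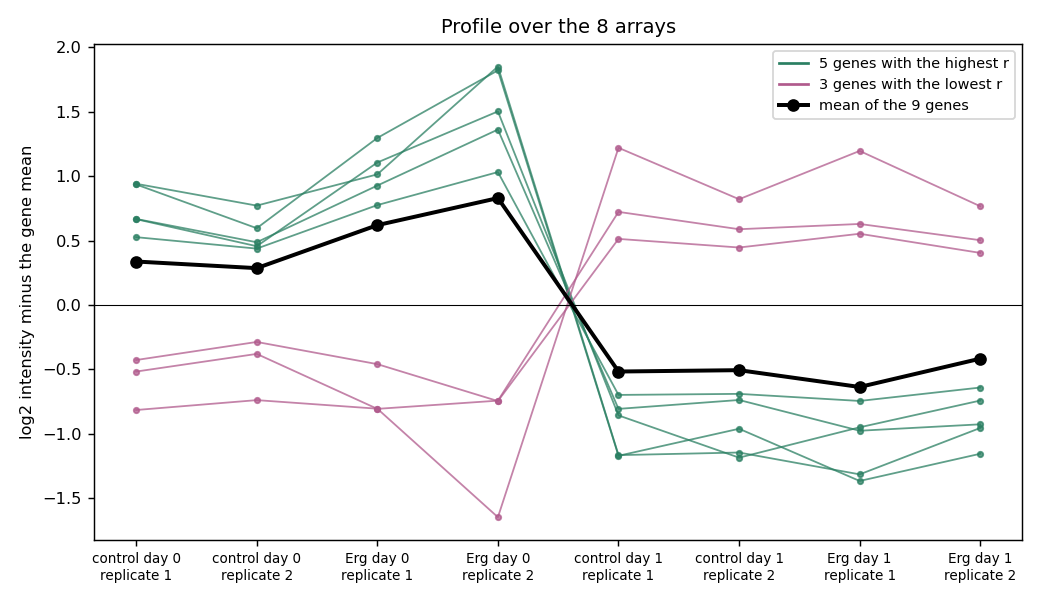
Lines join the 8 arrays in a fixed order and plot log2 intensity minus each gene's own mean for the mean of the 9 genes (black), the 5 genes with the highest correlation with it (green) and the 3 with the lowest (pink). The black line stands at 0.83 on replicate 2 of Erg day 0 and at -0.64 on replicate 1 of Erg day 1.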

How the data were processed

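RNA was measured on 8 GeneChip Mouse Genome 430 2.0 arrays in 4 groups of 2, taken from the sample labels. The authors deposited RMA intensity values on the linear scale (background correction, quantile normalization, median polish). The deposited workbook's notes name Partek GS 6.6 for this, while the series text names dChip of 2005. Deposited p-value and q-value columns, and ratios or fold changes of group means, are the authors' own and were used only for comparison. How detection was judged is not given in the sources used here, and control spots and raw images were not analysed here, so the lowest quartile of each array stands in for background.

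The deposited intensities were transformed to log2 without a filter, and limma 3.58.1 (lmFit, eBayes) fitted the 4 group means on all 8 arrays (4 residual and 2.78 prior degrees of freedom, prior SD 0.168). The Benjamini-Hochberg adjustment covered all 45037 probe sets, and an adjusted p under 0.05 counted as passing. All p values come from this limma model, because an exact permutation test of 2 against 2 cannot go below 0.333. The fit was tested on simulated data. Where a gene needs 1 value, its single-symbol probe set with the highest mean was used.

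The 9 genes and all lists were chosen with earlier results of these data known. All their probe sets are named. From each list the rule names up to 4 rising and 4 falling genes past the threshold between control days, and up to 3 with the smallest p elsewhere. Psmb5, Psmb6, Psmb7, Psme3, Psme4, H2-K1, H2-D1, Nlrc5 and Irf1 are named whatever their values, and 1 further gene of the rule is not reported here. Tapbpl, the only further class I gene past the threshold, and Psma2, the least changed proteasome gene to pass, were added so that small counts are named in full. Ifnb1 was added beside Ifng. The members of the lists for endothelial and epithelial cells were also tested between control days. Of these, 0 of 5 and 1 of 4 passed, against 19.8% of all probe sets called in either direction.

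Alternatives were the series table in place of the workbook, an intensity trend, a filter on dim probe sets, cyclic loess, array weights, the compared groups alone, the replicate number as a block, and each array left out. The crossed block and every alternative applied to the lists were chosen after seeing the data. Equal replicate numbers mark no shared culture in the labels, and deviations of equal numbers correlated from -0.61 (control and Erg on day 0) to 0.32 (control and Erg on day 1), so they were not treated as pairs. Array annotation alignments name no build, although its Ensembl records name NCBIM37, and their positions were therefore not printed. The software was R 4.3.3 with data.table (version 1.17.8), and Python 3.11.15 with matplotlib 3.10.9 for plots.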

Additional observations from a re-analysis of the deposited data

How the results depend on the processing

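With 2 arrays a group, single arrays decide most counts, and signal over background could not be measured. The values of the 9 genes counted below covered all 15 probe sets between days and between Erg and control on day 0. On day 1 they covered only Psmb8 and Psme2. For the change of the Erg difference they covered only Psmb8 (1422962_a_at), Tap1 (1416016_at) and Tap2. Over settings that keep all arrays, 323 of 341 values of the 9 genes kept their direction and side of the threshold, 12 no longer passed, 4 newly passed and 2 reversed, both under cyclic loess: Tap2 between control days (-0.10) and Tap1 1448177_at between Erg and control on day 0 (0.061). Cyclic loess moved the median of all probe sets between control days from -0.11 to -0.01. It also moved the split of calls between Erg days from 2395 higher of 3146 to 1737 of 2639. Of all probe sets, 5075 passed between control days with the dim ones filtered out, where fewer were tested, and 13973 with array weights. Between Erg days 1511 passed with array weights and 23 from those 4 arrays alone, none of them of the 9 genes (0 of 15). The cause was not tested. The replicate block left 5 of the 15 probe sets between control days and 4 between Erg days, with 7110 and 2182 of all, and changed no other call of the 9 genes than those of Tap1. With the numbers of the Erg day 0 arrays crossed it gave 5 and 8 of the 15, with 9798 and 3704 of all.

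With each array left out in turn, 329 of 408 values of the 9 genes kept their direction and side, 43 no longer passed, 19 newly passed and 17 reversed. Of the 15 probe sets, 0 to 11 passed between control days, 1 to 9 between Erg days and 0 to 4 between Erg and control on day 0. Of all probe sets, 366 to 16506, 105 to 10337 and 0 to 3397 passed in these comparisons, and 0 to 356 for the change of the Erg difference. Reversals among the values covered had these ranges. Tap2 ran from -0.10 to 0.15 between control days. Between Erg days B2m 1452428_a_at ran from -0.29 to 0.020 and Tap1 1420274_at from -0.65 to 0.069. Between Erg and control on day 0, B2m ran from -0.0064 to 0.18 (1449289_a_at) and from -0.12 to 0.19, Psme1 from -0.15 to 0.17, Psme2 from -0.082 to 0.53, Tap1 from -0.081 to 0.077 (1448177_at) and from -0.37 to 0.10 (1449803_x_at), and Tapbp from -0.10 to 0.68 (1421812_at) and from -0.15 to 0.42. On day 1, Psmb8 1422962_a_at ran from -0.22 to 0.18. Of all 15 differences on day 1, 7 were below 0 with every array kept. It was 4 without replicate 1 of Erg day 1 and 9 without replicate 2, so signs outside the values covered changed as well.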
